A study of Mus musculus with 4 samples.

Results

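Ribosome footprints at the translation initiation sites of neurotransmitter receptors and their postsynaptic scaffolds were followed across 4 libraries of primary cultured mouse cortical neurons. The members were taken by symbol: AMPA, NMDA, kainate, delta and metabotropic glutamate receptors, GABA-A, GABA-B, glycine and acetylcholine receptors, the Cacng family, and the scaffolds Dlg, Dlgap, Shank, Homer and gephyrin. This gave 56 of the 6352 transcripts in the authors' table, each from a different gene. Of these, 17 were grouped as inhibitory (GABA-A, GABA-B and glycine receptors and gephyrin), 32 as excitatory (glutamate receptors, Cacng proteins and their scaffolds) and 7 as neither. The last group holds acetylcholine receptors and Grina, whose symbol resembles that of an NMDA receptor subunit although it encodes a protein of the TMBIM family. Symbols came from a gene list extracted as text, and those of Gabrb2, Glrb, Glra2, Glra3 and Chrnb2 were misread there and were restored from their database numbers, so the values of these 5 genes depend on that correction.

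The study asked how loss of LTN1, a ubiquitin ligase that acts on stalled 60S ribosomal subunits, and of TTC3, another ubiquitin ligase, affects translation initiation. Neurons from Ltn1 KO or WT mice received RNAi against Ttc3 or a scramble control and were then exposed to harringtonine (5 µg/ml, 3 min), a drug that holds ribosomes at start sites. There was 1 library per condition: KO SC (Ltn1 KO, titled Ttc3 RNAi), WT SC (WT, titled Ttc3 RNAi), KO TTC (Ltn1 KO, titled scramble) and WT TTC (WT, titled scramble). The letters of the sample codes, SC and TTC, spell the opposite RNAi, so libraries are named here by genotype and code, and if the titles are exchanged every SC minus TTC difference belongs to the opposite RNAi. No source used here gives the number of animals or cultures behind a library, or the part of Ltn1 that is deleted.

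The libraries held 2673112 (KO SC), 2096153 (WT SC), 3655827 (KO TTC) and 1460425 (WT TTC) reads. Values are in RPM, reads normalised to the depth of the complete library, and whole reads were recovered from them, 1 read being worth 0.374, 0.477, 0.274 and 0.685 RPM in that order. The members took 0.465 to 0.674% of the reads at the listed sites, with a median of 7, 4, 6 and 2 reads per member. A library with no read at a site allows a level of up to 3 reads, which is 1.12, 1.43, 0.821 and 2.05 RPM. Ltn1 itself had 37 reads (13.8 RPM) in KO SC, 10 (4.77 RPM) in WT SC, 0 in KO TTC and 2 (1.37 RPM) in WT TTC, and Ttc3 had 2, 3, 0 and 0 reads. Footprints at the start site of an unknown allele do not check the genotype labels, and the Ttc3 counts are too low to settle which code received which RNAi. Grina and the muscarinic receptor gene Chrm3 were lower in KO in the study's own list of KO minus WT differences, which names no RNAi. Both were lower in KO within SC, whereas within TTC Grina was higher in KO and Chrm3 had no read. The gephyrin gene Gphn and Gabrb2 were also lower in KO in that list. Both were lower in KO within SC and higher in KO within TTC, as given below. No TTC difference of these genes was called. The directions in the list were thus those of the SC pair. If the list was made without RNAi against Ttc3, SC would be the scramble arm, as the code letters spell and against the titles. Beyond these directions, which libraries the list was made from was not tested. All 9 neuronal markers examined were in the table, with a sum of 1720 to 2018 RPM, and no microglial or endothelial marker was. Astrocyte markers (9 of 10 in the table) summed to 180 RPM in KO SC, 240 RPM in WT SC, 231 RPM in KO TTC and 292 RPM in WT TTC, and oligodendrocyte lineage markers (9 of 14, with Cldn11 at 0 in every library) to 11.97, 38.6, 46.5 and 93.8 RPM in the same order. Interneuron markers (5 of 11 in the table) summed to 62.5 to 76.0 RPM, a sum in which Calb2 (43.4, 29.1, 10.9 and 10.96 RPM) and Gad1 (8.60, 15.7, 27.9 and 35.6 RPM) ran in opposite directions between the codes. Of the 4 interneuron markers with at least 10 reads, 3 were lower in the SC library at both genotypes, Gad1 among them. Only Calb2 was higher there. Both glial sums were thus lower in the KO library of each pair, and their part in the results below was not tested.

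Fast excitation in the cortex is carried by glutamate acting on AMPA and NMDA receptors, which are tetramers held at the postsynaptic density by scaffolds of the Dlg, Dlgap, Shank and Homer families. Fast inhibition is carried by GABA-A receptors, pentamers that usually combine alpha, beta and gamma subunits, and by glycine receptors, both anchored by gephyrin. Metabotropic glutamate and GABA-B receptors signal more slowly through G proteins.

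Libraries were compared in pairs (KO with WT within SC and within TTC, SC with TTC within KO and within WT) by the exact binomial test on reads (two-sided, Benjamini-Hochberg adjusted over all transcripts with a read in either library, called at 0.05) and by a fold rule, 2-fold or more on the log2(RPM + 1) scale among transcripts with at least 10 reads over the 4 libraries. That filter kept 32 members: 12 inhibitory, 15 excitatory and 5 of neither kind. With 1 library per condition these tests compare libraries, not conditions. Reads also varied more than counting error allows: among transcripts with at least 20 reads in a pair, the mean Pearson statistic was 3.17 to 5.12, where counting error alone gives about 1. Intervals given for levels, ratios and shares are exact 95% intervals that cover counting error only. Fold values are ratios of RPM, whereas differences are on the log2(RPM + 1) scale.

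Among the inhibitory members, the beta subunits Gabrb1 and Gabrb2 of the GABA-A receptor were lower in KO SC than in its WT library. Beta subunits form the GABA binding site together with an alpha subunit. Gabrb1 (chr5:71657921-72149572, GRCm38) had 13.1 RPM (35 reads) in KO SC, 46.3 RPM (97 reads) in WT SC, 22.2 RPM (81 reads) in KO TTC and 29.4 RPM (43 reads) in WT TTC. Both KO libraries lay below both WT libraries. The level in KO SC was 0.283-fold that in WT SC (interval 0.187 to 0.42, exact binomial adjusted p = 5.54e-09), and within TTC the ratio was 0.753 (0.514 to 1.12, exact binomial adjusted p = 0.451). The 2 ratios differed from each other, with an adjusted p of 0.015 over all 4585 transcripts by an exact conditional test on the reads of the 4 libraries, a test that 3.97% of these transcripts passed.

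Gabrb2 (chr11:42419515-42632591), found in the most common receptors of the adult brain, had 7.86 RPM (21 reads) in KO SC, 21.5 RPM (45 reads) in WT SC, 10.9 RPM (40 reads) in KO TTC and 8.90 RPM (13 reads) in WT TTC. Here WT SC stood above the other 3 libraries. The ratio was 0.366 within SC (0.207 to 0.627, exact binomial adjusted p = 0.00342) and 1.23 within TTC (0.644 to 2.5, adjusted p = 0.928). WT SC was also 2.41-fold above WT TTC (1.28 to 4.87, exact binomial adjusted p = 0.0455). The difference between the 2 KO to WT ratios of Gabrb2 did not pass, with an adjusted p of 0.0855 by the exact conditional test. Rescaling the libraries or changing the pseudocount turned the direction of neither Gabrb1 nor Gabrb2 between KO and WT. In the RefSeq annotation of GRCm38, Gabrb1 overlaps the alpha subunit gene Gabra4 by 388 bases at chr5:71657921-71658308. Whether the counting used strand is not given in the sources used here, so reads in this stretch could not be assigned to one gene.

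**Figure D1:**
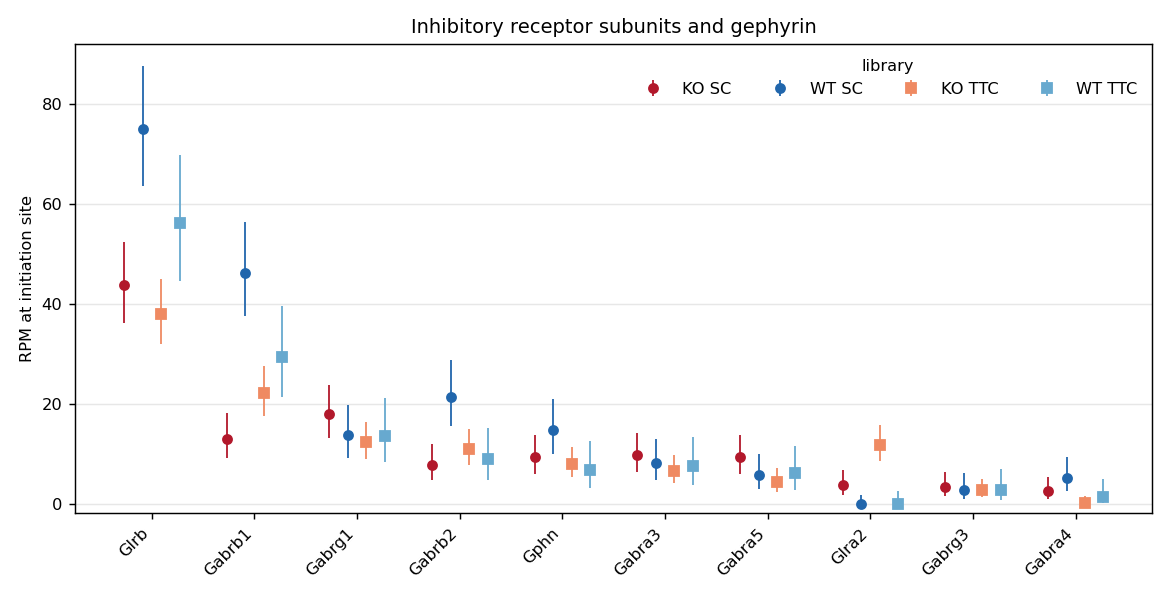
Level at the initiation site (RPM, linear axis) of 10 inhibitory members with at least 10 reads, in order of mean level, in KO SC, WT SC, KO TTC and WT TTC. Points are single libraries and bars are exact 95% Poisson intervals. Glrb and Gabrb1 have both KO libraries below both WT libraries, Gabrb2 is highest in WT SC, and Glra2 is at 0 in both WT libraries.

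Alpha subunits set much of the receptor's pharmacology. Gabra3 had 9.73, 8.11, 6.56 and 7.53 RPM in KO SC, WT SC, KO TTC and WT TTC, and Gabra5, which is enriched in extrasynaptic hippocampal receptors, had 9.35, 5.72, 4.38 and 6.16 RPM. Neither was called in any of the 4 pairs. Gabra4 was between 0.274 and 5.25 RPM and Gabra2 between 0 and 1.496 RPM. The gamma subunits link the receptor to the synapse. Gabrg1 had 17.96 RPM in KO SC, 13.8 RPM in WT SC, 12.3 RPM in KO TTC and 13.7 RPM in WT TTC, while Gabrg3 had 2.74 to 3.37 RPM. Neither was called in any pair. The delta subunit gene Gabrd lies outside the selection rule and had 0.748, 0.477, 3.01 and 4.79 RPM.

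Glycine receptors are chloride channels of alpha subunits and the beta subunit, which binds gephyrin. Glrb (chr3:80843598-80913660), which encodes the beta subunit, had the most start site reads of the receptor genes, with 43.8 RPM (117 reads) in KO SC, 74.9 RPM (157 reads) in WT SC, 38.0 RPM (139 reads) in KO TTC and 56.1 RPM (82 reads) in WT TTC. Both KO libraries were below both WT libraries. The ratio of KO to WT was 0.584 within SC (0.456 to 0.747, exact binomial adjusted p = 0.000623) and 0.677 within TTC (0.512 to 0.901, exact binomial adjusted p = 0.0683), which did not pass.

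Glra2 (chrX:165129017-165327867), the alpha subunit of the embryonic glycine receptor, had 3.74 RPM (10 reads) in KO SC, 0 in WT SC, 11.8 RPM (43 reads) in KO TTC and 0 in WT TTC. It was thus read in the KO libraries and not detected in either WT library. Against the limit of 3 reads per library, it was at least 2.61-fold higher in KO SC (exact binomial adjusted p = 0.0467) and at least 5.73-fold higher in KO TTC, each against the WT library of its code (exact binomial adjusted p = 6.97e-05). KO SC had 0.318 of the KO TTC level (0.143 to 0.643, exact binomial adjusted p = 0.00512). Glra3 had no read in any library. Gephyrin, encoded by Gphn, had 9.35 RPM in KO SC, 14.8 RPM in WT SC, 7.93 RPM in KO TTC and 6.85 RPM in WT TTC. WT SC was the highest, and no pair was called, with ratios of KO to WT of 0.632 (0.358 to 1.11) and 1.16 (0.549 to 2.66). The GABA-B receptor genes Gabbr1 and Gabbr2 had at most 4 reads in a library.

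Over the 17 inhibitory members, the exact binomial test called 4 within SC (Gabrb1, Gabrb2 and Glrb lower in KO SC, Glra2 higher), where 7.38% of all transcripts with a read were called. Within TTC it called 2 (Glra2 higher in KO TTC and 1 other gene lower), where 7.54% were. Of the 12 members with 10 reads, KO SC was past 2-fold below WT SC for 2 and above it for 1, where 10.1% of all 4585 transcripts were lower and 8.44% higher. KO TTC was below WT TTC for 1 and above it for 1, where 7.61% were lower and 13.8% higher. Their median difference was -0.22 within SC and -0.16 within TTC (log2), beside -0.06 and 0 over all transcripts. The median within SC was 0.18 without the filter on reads or without gephyrin, so its sign depended on the members counted. The summed level of all 17 genes was 171 RPM in KO SC and 240 RPM in WT SC. It was 147 RPM in KO TTC and 173 RPM in WT TTC. The ratio of KO to WT was 0.711 (0.625 to 0.809) within SC and 0.851 (0.732 to 0.992) within TTC. Over all transcripts the ratios of sums were 0.9496 and 0.9772. Not all members shared the lower sum. Of the 12, 6 were lower and 6 higher in KO SC, and 8 lower and 4 higher in KO TTC. Within SC, the summed GABA-A beta subunits had a ratio of 0.371 (0.286 to 0.48). The alpha subunits had 1.395 (1.064 to 1.839) and the gamma subunits 1.307 (0.851 to 2.034). The glial marker sums given above were lower in the same KO libraries.

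The excitatory members had fewer start site reads than the inhibitory ones in every library. Among the AMPA receptor subunits, which carry most fast glutamate currents, Gria1 (chr11:57011571-57330244) had 13.5 RPM (36 reads) in KO SC, 11.4 RPM (24 reads) in WT SC, 11.5 RPM (42 reads) in KO TTC and 13.7 RPM (20 reads) in WT TTC. Its 4 levels were within each other's intervals, with ratios of KO to WT of 1.18 (0.683 to 2.06) and 0.839 (0.482 to 1.51). Gria3 had 7.48, 8.11, 6.56 and 6.85 RPM in the same order and Gria4 1.91 to 3.82 RPM, and neither was called in any pair.

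Gria2 (chr3:80681450-80804227), whose edited subunit makes AMPA receptors impermeable to calcium, had 9.35 RPM (25 reads) in KO SC, 7.63 RPM (16 reads) in WT SC, 7.93 RPM (29 reads) in KO TTC and 0.685 RPM (1 read) in WT TTC. WT TTC alone was low. KO TTC was 11.6-fold above it, with an interval of 1.92 to 473 that reflects the single read (exact binomial adjusted p = 0.0184), and WT SC 11.1-fold above it (1.73 to 467, exact binomial adjusted p = 0.0253). Within SC the ratio of KO to WT was 1.23 (0.629 to 2.46). The other AMPA subunits showed no such gap in WT TTC. In that library Gria2 made up 2.94% of AMPA subunit reads (0.0744 to 15.3), against 28.1% in KO SC, 24.6% in WT SC and 28.4% in KO TTC.

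NMDA receptors need the obligate subunit encoded by Grin1. Its level was 7.86 RPM in KO SC, 8.59 RPM in WT SC, 12.9 RPM in KO TTC and 8.22 RPM in WT TTC. Grin2b (chr6:135713221-136173615), the subunit typical of young neurons, had 8.23, 6.20, 7.39 and 8.22 RPM in the same order. Neither gene was called in any pair, and the ratios of KO to WT of Grin2b were 1.33 (0.64 to 2.87) and 0.899 (0.44 to 1.95), intervals that leave room for changes of over 2-fold. Grin2a, the subunit of mature synapses, had 5 reads in KO SC and none in the other libraries, and Grin3a had 0.954 to 3.37 RPM.

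Of the metabotropic receptors, Grm7 (chr6:110645349-111567230), a presynaptic receptor of low glutamate affinity, had 6.73 RPM (18 reads) in KO SC, 6.20 RPM (13 reads) in WT SC, 0.821 RPM (3 reads) in KO TTC and 5.48 RPM (8 reads) in WT TTC. KO TTC alone was low, at 0.15 of WT TTC (0.0256 to 0.624, exact binomial adjusted p = 0.0445), and KO SC was 8.21-fold above it (2.4 to 43.5, exact binomial adjusted p = 0.00106). Grm5, a postsynaptic receptor coupled to Homer, had 4.12, 2.39, 6.02 and 6.16 RPM and was not called. The kainate and delta receptor genes had at most 6 reads in a library, and Grik2 had none.

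The Cacng genes in the table encode proteins of the family of AMPA receptor auxiliary subunits (TARPs). Cacng7 (chr7:3332027-3368221) had 2.99 RPM (8 reads) in KO SC, 0 in WT SC, 5.20 RPM (19 reads) in KO TTC and 10.96 RPM (16 reads) in WT TTC. The order of KO and WT was opposite in the 2 pairs. The KO library was at least 2.09-fold higher within SC (exact binomial adjusted p = 0.104), its ratio within TTC was 0.474 (0.231 to 0.986, exact binomial adjusted p = 0.22), and the pairs differed from each other (exact conditional test, adjusted p = 0.0404). WT SC was at least 7.65-fold lower than WT TTC (exact binomial adjusted p = 4.48e-05). Cacng4 had 0 to 3.42 RPM and the other 3 at most 4 reads in a library.

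**Figure D2:**
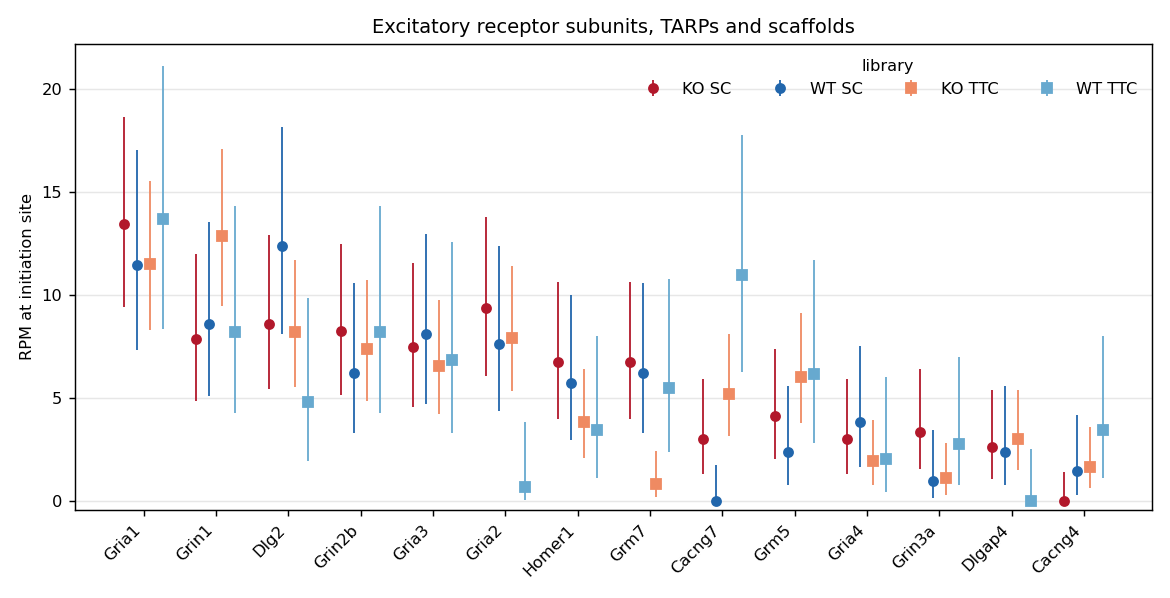
Level at the initiation site (RPM, linear axis) of 14 excitatory members with at least 10 reads, in order of mean level, in KO SC, WT SC, KO TTC and WT TTC. Points are single libraries and bars are exact 95% Poisson intervals. Most intervals overlap. Gria2 is low in WT TTC (0.685 RPM), Grm7 in KO TTC (0.821 RPM) and Cacng7 in WT SC (0).

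Few start site reads fell on the scaffolds of the excitatory synapse. Dlg2, the gene of PSD-93, had the most reads, with 8.60 RPM in KO SC, 12.4 RPM in WT SC, 8.21 RPM in KO TTC and 4.79 RPM in WT TTC, and Homer1 had 6.73, 5.72, 3.83 and 3.42 RPM. Neither was called in any pair. Dlg4, the gene of PSD-95, Dlg3, Dlgap1 and Shank2 had no read in any library, and Shank3 had 4 reads (2.74 RPM) in WT TTC and none in KO SC, WT SC and KO TTC. The table lists 1 transcript and 1 site per gene, so an absence of reads there says nothing of other start sites or transcripts of the gene. Dlgap4, the only other scaffold with 10 reads, had 2.62, 2.39, 3.01 and 0 RPM.

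Over the 32 excitatory members, the exact binomial test called 0 within SC, against 7.38% of all transcripts with a read. It called 2 within TTC, against 7.54%, with Gria2 higher and Grm7 lower in KO TTC. Of the 15 members with 10 reads, each pair had 1 lower and 2 higher past 2-fold, against 10.1% lower and 8.44% higher over all transcripts within SC and 7.61% and 13.8% within TTC. KO SC was below WT SC for Cacng4 and above it for Cacng7 and Grin3a, and KO TTC was below WT TTC for Grm7 and above it for Gria2 and Dlgap4. Their median difference was 0.20 within SC and -0.05 within TTC (log2). The summed level of the 32 genes was 91.7 RPM in KO SC, 84.4 RPM in WT SC, 82.9 RPM in KO TTC and 86.3 RPM in WT TTC, so that it differed by less than the counting interval in both pairs, at ratios of 1.09 (0.891 to 1.32) and 0.961 (0.778 to 1.19).

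As a share of the reads of both groups, the inhibitory members held 65.0% (61.4 to 68.6, 456 inhibitory and 245 excitatory reads) in KO SC, 74.0% (70.5 to 77.2, 503 and 177 reads) in WT SC, 64.0% (60.7 to 67.3, 539 and 303 reads) in KO TTC and 66.8% (61.8 to 71.5, 253 and 126 reads) in WT TTC. The share of KO SC was below that of WT SC beyond the counting intervals, whereas within TTC the intervals overlapped. Glrb weighed on the share, which was 58.0%, 66.2%, 56.9% and 57.6% without that gene. KO SC stayed below WT SC without Glrb, with intervals (53.9 to 62.1 in KO SC and 61.9 to 70.2 in WT SC) that overlapped only at their ends. Such an overlap is not a test of the difference. RNA was not measured in these libraries, so fewer cells of a type, less mRNA and less initiation per mRNA cannot be told apart for any of these genes.

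**Figure D3:**
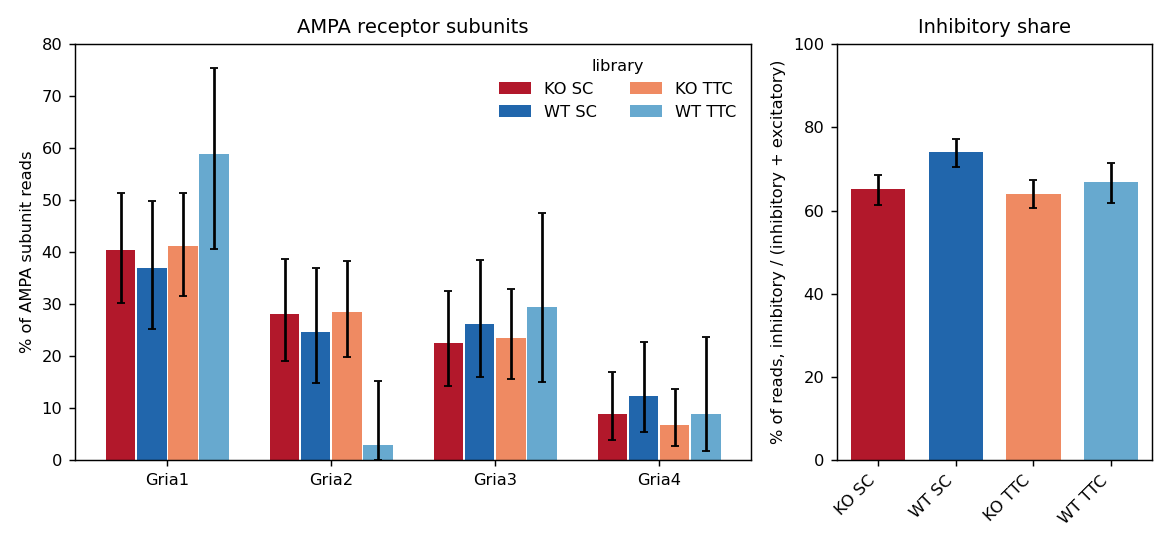
Left, share of AMPA subunit reads (%) that fell on Gria1 to Gria4 in KO SC, WT SC, KO TTC and WT TTC. Right, share of inhibitory members (%) in the reads of inhibitory and excitatory members together. Bars are single libraries from 0 and lines are exact 95% binomial intervals. Gria2 holds 2.94% of AMPA subunit reads in WT TTC and 24.6 to 28.4% in the other libraries, and the inhibitory share is 74.0% in WT SC and 64.0 to 66.8% in the others.

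The acetylcholine receptors had few reads, apart from Chrna4 and Chrm1. Chrna4 (chr2:181022311-181043579), a subunit of the high-affinity nicotinic receptor of the brain, had 7.48 RPM (20 reads) in KO SC, 7.63 RPM (16 reads) in WT SC, 7.66 RPM (28 reads) in KO TTC and 0 in WT TTC. It stood at the same level in 3 libraries and was not detected in WT TTC. KO TTC was at least 3.73-fold higher than WT TTC (exact binomial adjusted p = 0.00549) and WT SC at least 3.72-fold higher than WT TTC (exact binomial adjusted p = 0.00727). The 2 KO to WT ratios differed (exact conditional test, adjusted p = 0.0417). The muscarinic receptor gene Chrm1 had 8.23, 11.4, 4.65 and 6.85 RPM and was not called. WT TTC was the shallowest library, in which 3 reads correspond to 2.05 RPM, and Gria2, Dlgap4 and Chrna4 all had 0 or 1 read there.

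Grina (chr15:76246717-76249909), which is selected by its letters alone, had 44.1 RPM (118 reads) in KO SC, 79.2 RPM (166 reads) in WT SC, 64.0 RPM (234 reads) in KO TTC and 55.5 RPM (81 reads) in WT TTC. KO SC was the lowest and WT SC the highest. The ratio of KO to WT was 0.557 within SC (0.436 to 0.71, exact binomial adjusted p = 0.000115) and 1.15 within TTC (0.893 to 1.5, adjusted p = 0.652), and the 2 ratios differed (exact conditional test, adjusted p = 0.00316). KO SC was at 0.69 of KO TTC (0.548 to 0.864, exact binomial adjusted p = 0.0102).

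**Figure D4:**
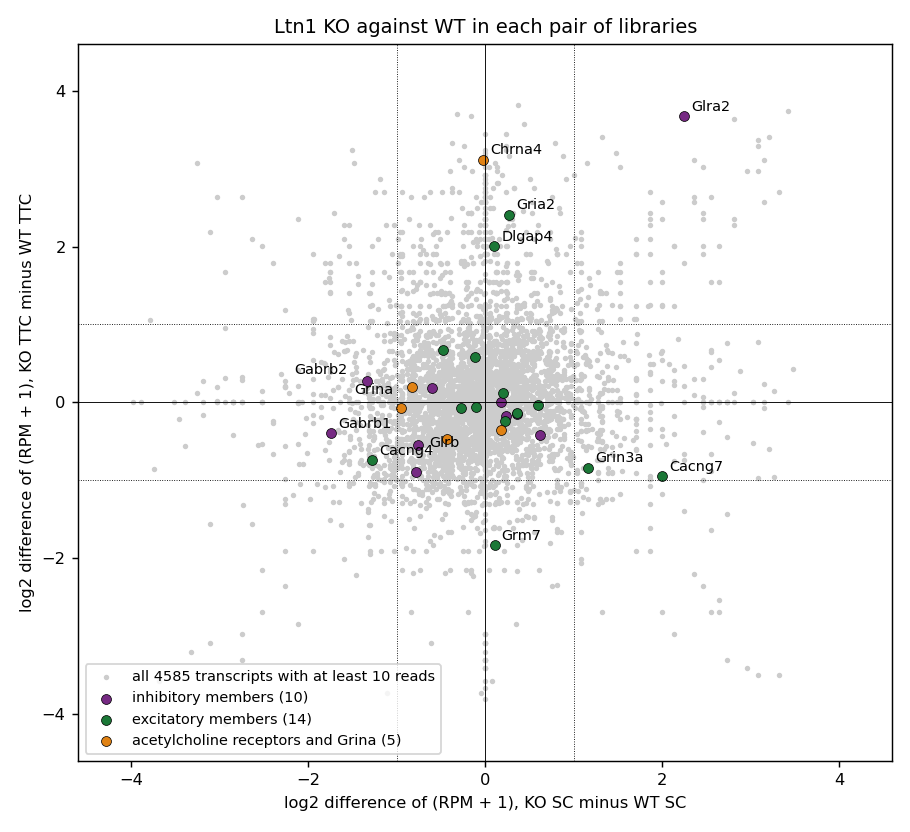
Difference between Ltn1 KO and WT on the log2(RPM + 1) scale within SC (horizontal) and within TTC (vertical) for 10 inhibitory, 14 excitatory and 5 other members with at least 10 reads, over all 4585 such transcripts in grey. Each point is 1 transcript in 4 single libraries and dotted lines mark 2-fold. Glra2 is past 2-fold up on both axes, Gabrb1 and Gabrb2 are past 2-fold down within SC, while Cacng7 is up within SC and Chrna4 and Gria2 are up within TTC.

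The pairs shared no library, which allowed them to be set side by side. Both KO libraries were below both WT libraries for 3 inhibitory members (Glrb and Gabrb1 among them), 0 excitatory members and Chrm4, or 4 of 32 members, against 17.3% of all 4585 transcripts. Both were above both WT libraries for Glra2 and for 3 excitatory members (Gria2 and Dlgap4 among them), or 4 of 32, against 14.2%. In a limma fit with terms for genotype and code, and 1 residual degree of freedom among the 4 libraries, 0 members passed an adjusted p of 0.05 for genotype, as did 0% of all transcripts, and edgeR's quasi-likelihood test on the reads also called 0. At an unadjusted p under 0.05, limma had 6 members (Glrb, Gabrb1, Glra2 and Gria2 among them), against 8.29% of all transcripts, and edgeR had 5, the same without Gria2. The genotype coefficients of limma were -1.07 ± 0.34 (SE) for Gabrb1 and -0.66 ± 0.21 for Glrb, with an adjusted p of 0.535 for each.

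Between the codes, more members were higher than lower in the SC libraries. The astrocyte and oligodendrocyte lineage marker sums given above were lower in the SC library at both genotypes, and their part in these differences was not tested. In WT SC against WT TTC, 23 of 32 members were higher and 8 lower, beside 2123 and 2316 of all 4585 transcripts, with 8 past 2-fold higher and 2 past 2-fold lower, against 14% and 14.3% of all transcripts. The exact binomial test called 5 members (4 higher, with Gabrb2, Gria2 and Chrna4 among them, and Cacng7 lower), against 10.8% of transcripts with a read. In KO SC against KO TTC, 19 members were higher and 13 lower, beside 1827 and 2709 of all transcripts, with 4 past 2-fold higher (6.74% of all transcripts) and 2 past 2-fold lower (14.6%), and 4 were called by the exact binomial test (2 higher, with Grm7 among them, and Glra2 and Grina lower), against 16.6%. Both SC libraries were above both TTC libraries for 13 members, 6 of them inhibitory and 5 excitatory, against 16.7% of all transcripts, and below them for 3 members (Cacng4, Cacng7 and Grm5), against 25.5%. For code, limma called 0 members at an adjusted p of 0.05 (0.654% of all transcripts passed) and edgeR 0, and at an unadjusted p under 0.05 limma had 4 members, against 15.2% of all transcripts, and edgeR 1. The median of all transcripts between KO SC and KO TTC was -0.16, and it moved by 0.11 and 0.14 (log2) when the libraries were rescaled to the same sum over the listed sites or by median-of-ratios factors.

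Partners of the receptors were read from lists of proteins that act with them. Of 43 excitatory partners, 38 were in the table and 25 had at least 10 reads. Of the 38, the exact binomial test called 3 within SC, against 7.38% of all transcripts with a read, and 2 within TTC, against 7.54%. All 5 calls were lower in the KO library, but the list as a whole had 13 lower and 11 higher members within SC (median -0.02, log2) and 15 lower and 10 higher within TTC (median -0.18). The 3 within SC were Camk2d and Camk2g, subunits of the calcium/calmodulin kinase of the postsynaptic density, and Nptxr, a receptor of secreted pentraxins that cluster AMPA receptors. Camk2d had 23.9 RPM in KO SC, 47.2 RPM in WT SC, 36.1 RPM in KO TTC and 51.4 RPM in WT TTC, and Camk2g had 10.1, 24.8, 14.8 and 26.7 RPM. The KO library was thus lower in both pairs for both kinase genes, although each passed the test within SC only. Camk2a, of the same kinase, had 46.4 RPM in KO SC, 36.7 RPM in WT SC, 26.8 RPM in KO TTC and 22.6 RPM in WT TTC, with the KO value above the WT value in both pairs and neither pair called. The 2 within TTC were Camk2b, with 194, 218, 183 and 279 RPM, and Lrrtm3, a synaptic adhesion protein, with 0.748, 4.29, 0.274 and 4.11 RPM.

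Of 37 inhibitory partners, 26 were in the table and 18 had at least 10 reads. Of the 26, 1 was called within SC, against 7.38% of all transcripts with a read, and 2 within TTC, against 7.54%. The list had 12 lower and 6 higher members within SC and 8 lower and 10 higher within TTC. Nlgn2, the neuroligin of inhibitory synapses, which binds gephyrin, had 3.37 RPM (9 reads) in KO SC, 16.2 RPM (34 reads) in WT SC, 4.92 RPM (18 reads) in KO TTC and 13.0 RPM (19 reads) in WT TTC. It was called lower in the KO library of both codes, with an exact binomial adjusted p of 0.000301 within SC and 0.0463 within TTC. Ubqln1, a ubiquilin that binds GABA-A receptors, had 33.7 RPM in KO SC, 45.3 RPM in WT SC, 44.0 RPM in KO TTC and 87.6 RPM in WT TTC and was called within TTC (exact binomial adjusted p = 3.03e-06). Between the codes, Gad1, which makes GABA, had 8.60 RPM in KO SC, 15.7 RPM in WT SC, 27.9 RPM in KO TTC and 35.6 RPM in WT TTC. It was lower in the SC library at either genotype (exact binomial adjusted p = 1.22e-06 and 0.00483 in KO and in WT libraries). Kctd12, an auxiliary subunit of GABA-B receptors, went the other way, with 52.0 RPM in KO SC, 50.1 RPM in WT SC, 19.4 RPM in KO TTC and 17.8 RPM in WT TTC.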

How the data were processed

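Ribosome footprints of 4 libraries were analysed from 1 table of RPM, which the authors deposited per transcript, with the complete library as the base. The submitters' processing notes name Bowtie, SAMtools, bedtools and GRCm38/mm10 without versions. The counting window, strand handling and choice of transcripts are not given in the sources used here. Whole reads were recovered, since 100% of the values fell on steps of 1 read within 1e-06. The total of listed sites, 6.06 to 6.85% of a library, is not its depth.

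Symbols were joined by transcript identifier from the study's gene list (6349 of 6352 transcripts). In this text, 38 identifiers, 5 member symbols and 28 other symbols had been misread and were mended, which added 3 members. The authors' own KO minus WT differences in that list were used only for the direction of Grina, Chrm3, Gabrb2 and Gphn. Positions are from RefSeq for GRCm38. Members, partner lists and tests were chosen with earlier results of these data known.

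Genes were named if their mean was at least 5 RPM, if any exact binomial test called them, if the study measured their surface protein (such as Gria1 and Grin2b), or as chosen scaffolds. A few members and partners that meet this rule are not reported here and stand only in counts and sums. Others with a value were named after their values were seen. Pairs of libraries were compared on log2(RPM + 1) and by the exact conditional binomial test (scipy 1.17.1). The model of genotype and code was fitted with limma 3.58.1 with a trend, and with edgeR 4.0.16 on the recovered reads. The exact conditional test of the difference between pairs was added after the data were seen. Tests were tried first on simulated reads that varied by counting error only. That trial cannot show how the tests behave at the larger spread of these libraries. With 1 library per condition, p-values hold no replicate error.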

Additional observations from a re-analysis of the deposited data

Results flagged for a closer look

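In 4 members the KO to WT ratio differed between SC and TTC libraries by the exact conditional test on reads (adjusted over 4585 transcripts). For Gabrb1 the adjusted p was 0.015, with KO lower in both pairs and a ratio of 0.283 within SC and 0.753 within TTC. For Grina it was 0.00316, with ratios of 0.557 and 1.15. For Cacng7 it was 0.0404, with 8 reads in KO SC and 0 in WT SC, against 19 in KO TTC and 16 in WT TTC. For Chrna4 it was 0.0417, with 20 reads in KO SC and 16 in WT SC, against 28 in KO TTC and 0 in WT TTC. The results of Cacng7 and Chrna4 each rest on 1 library without a read. The test takes reads to vary by counting error alone, and each condition had 1 library.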

How the results depend on the processing

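No called value of the members changed its direction under the alternatives run, and none was run for single partner genes. The number of members past 2-fold, 6 within SC, 6 within TTC, 6 between KO SC and KO TTC and 10 between WT SC and WT TTC, was 2, 3, 2 and 4 with a pseudocount of 5 RPM, 2, 3, 1 and 6 when a mean of 5 RPM was required, and 15, 14, 13 and 16 at 1.5-fold. Without the filter on reads it was 10 within SC and 11 within TTC, and with a pseudocount of 0.1 RPM 11 within TTC. The median difference of inhibitory members within SC (-0.22) was 0.18 without the filter, 0.18 with receptor subunits only and -0.61 when a mean of 5 RPM was required. That of excitatory members was 0 without the filter within SC, within TTC and between WT SC and WT TTC, and 0.27 within TTC at that mean, where the exact binomial test called 3 members within TTC in place of 5. For code, limma called 1 member with a pseudocount of 5 RPM. The inhibitory share in KO SC, WT SC, KO TTC and WT TTC was 58.0%, 66.2%, 56.9% and 57.6% without Glrb, 70.0%, 78.4%, 70.2% and 74.1% with receptor subunits only, and 57.3%, 66.2%, 54.1% and 57.6% with the symbols as first read, and it was 67.4% in KO TTC without Gria1. The other 95 values of these results moved by less than 1.5 times or than their spread, and of the values of single genes 340 kept their side of 2-fold, 8 fell below it and 4 passed it. Under the other scalings, at most 3 of 32 members in a pair changed sign, none of them called. The limma and edgeR fits pair KO with WT by code, and no other pairing is given. Depth limited the account, since 32 of 56 members reached 10 reads and 6 had none in any library.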
